A study of Mus musculus with 16 samples.

Results

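The tumor by training interaction compares how skeletal muscle responded to treadmill training in tumor-bearing mice with how it responded in tumor-free mice. For each gene it is the training difference in tumor-bearing mice minus the training difference in tumor-free mice, (TE − T) − (E − C), on the log2 scale. It uses all 16 libraries of the series, 4 in each of 4 groups, and 14749 of the 35415 genes in the count table had enough reads to be tested. A value above 0 means that the trained mice stood higher, relative to their own untrained group, when they carried a tumor. A value below 0 means the reverse.

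RNA was taken from the gastrocnemius, a calf muscle with mostly fast fibers, of wild type male BALB/c mice that were 8 weeks old at purchase. The C group (control) and the E group (exercise) received saline and carried no tumor. The T group and the TE group were inoculated under the skin of the left hind limb region with CT26 cells, a colon carcinoma line that comes from the same mouse strain, and saline or cells were given under the same anesthesia. From the next day, the E and TE groups trained over 4 weeks, with treadmill sessions of 60 min on 6 days of each week at a speed of 14 m/min that was lowered for mice unable to keep up, while the C and T groups were put on a treadmill that did not move. Of 12 mice per group, 4 were sequenced as separate animals. Not every inoculated TE mouse grew a tumor, and the sources used here do not give the tumor size of the sequenced mice, the leg that was sampled or the time between the last run and sampling.

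Endurance training is known to act on muscle through contraction, calcium and energy stress, and it turns over the collagen-rich matrix that wraps the fibers and joins them to the tendon. A growing tumor acts on distant muscle through circulating cytokines. Interferon-gamma, a cytokine of T cells and natural killer cells, acts on genes for guanylate-binding proteins (Gbp), immunity-related GTPases and the parts of the cell that show peptides to T cells.

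Each library held between 35628211 and 37635741 counts. A floor of 3 counts came to 0.076 to 0.0875 CPM (counts scaled to a common library size, here with TMM factors), which covers counting error only. Muscle genes were among the most abundant in every library, with Ckm, the creatine kinase of muscle, at 13310 to 16970 FPKM (a level per gene length and library total) and Acta1, skeletal actin, at 18370 to 22550 FPKM. A few libraries stood apart. Markers of lymphocytes and lymph node (22 genes tested) summed to 200.9 CPM in TE4, 76.2 CPM in C3 and 57.0 CPM in E1, against 6.90 to 35.7 CPM in the other libraries. T3 and T4 were the highest libraries for summed macrophage markers (228.5 and 239.4 CPM, against 80.3 to 202.2 CPM elsewhere), and T4 alone had 71.5 CPM of Myh3, the embryonic myosin, against 1.36 to 7.61 CPM elsewhere. For some of the gene groups and genes that moved without these libraries, the values are given beside them below.

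No gene passed the test for the interaction. With edgeR's quasi-likelihood test, 0 of 14749 genes (0%) had an adjusted p-value under 0.05 with a fold change above 2 or below 0.5, and the smallest adjusted p-value from edgeR was 0.389. At an unadjusted p-value under 0.05, 545 genes (3.7%) lay above 0 and 813 genes (5.51%) lay below 0. The median interaction over all genes tested was 0.00 on the log2 scale. The choice of tool decided the call, because DESeq2 on the same counts gave 20 genes with an adjusted p-value under 0.05, 6 above 0 and 14 below 0, and 13 of them also had a fold change above 2 or below 0.5. Of the 20 genes, 19 had training differences of opposite sign in the 2 arms, which choosing genes by the interaction favors. Over all genes with an unadjusted edgeR interaction p-value under 0.05, 1211 had opposite signs and 147 the same sign. The 20 included Mmp14, Gbp5, Samd4, Nos1, Gatd1, LOC102639683, Dhtkd1, Gpnmb, Loxl1, Comp, Anxa8, Gbp7, Fbp2, Chad and Glycam1, which are described below. limma on voom values and limma on log2(FPKM + 1) gave 0 genes. The genes below are therefore described by their values, in every mouse, as ranges, as group means or by the interaction alone. A gene is said to have risen or fallen only where its edgeR adjusted p-value was under 0.05.

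Opposite directions were common by sign alone, since 7143 genes (48.4%) had training differences of opposite sign in tumor-bearing and tumor-free mice. With an unadjusted interaction p-value under 0.05 as well, 505 genes (3.42%) were higher with training in tumor-bearing and lower in tumor-free mice, and 706 genes (4.79%) were the other way round. Another 147 genes with such a p-value moved the same way in both arms but by different amounts. An unadjusted p-value under 0.05 in each arm on its own was reached by 41 of the 1211 opposite genes, 12 of them higher in TE than in T and 29 lower. Without T3 and T4, an alternative chosen after seeing the data, the count of opposite responders was 735 in place of 1211, and without T3 alone it was 801. In 7 genes (0.0475%) the 4 trained and 4 untrained mice did not overlap in either arm and the directions differed. In 15 other genes neither arm overlapped and the directions were the same, 7 higher and 8 lower with training. With T and TE overlapping, E lay wholly above C in 734 genes and wholly below C in 583. With C and E overlapping, TE lay wholly above T in 174 genes and wholly below T in 184. With 4 mice per group such separation also arises by chance, and the 7 genes were not tested against it. The plot of both arms for the named genes shows how the pairs of responses lay on either side of 0.

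**Figure D1:**
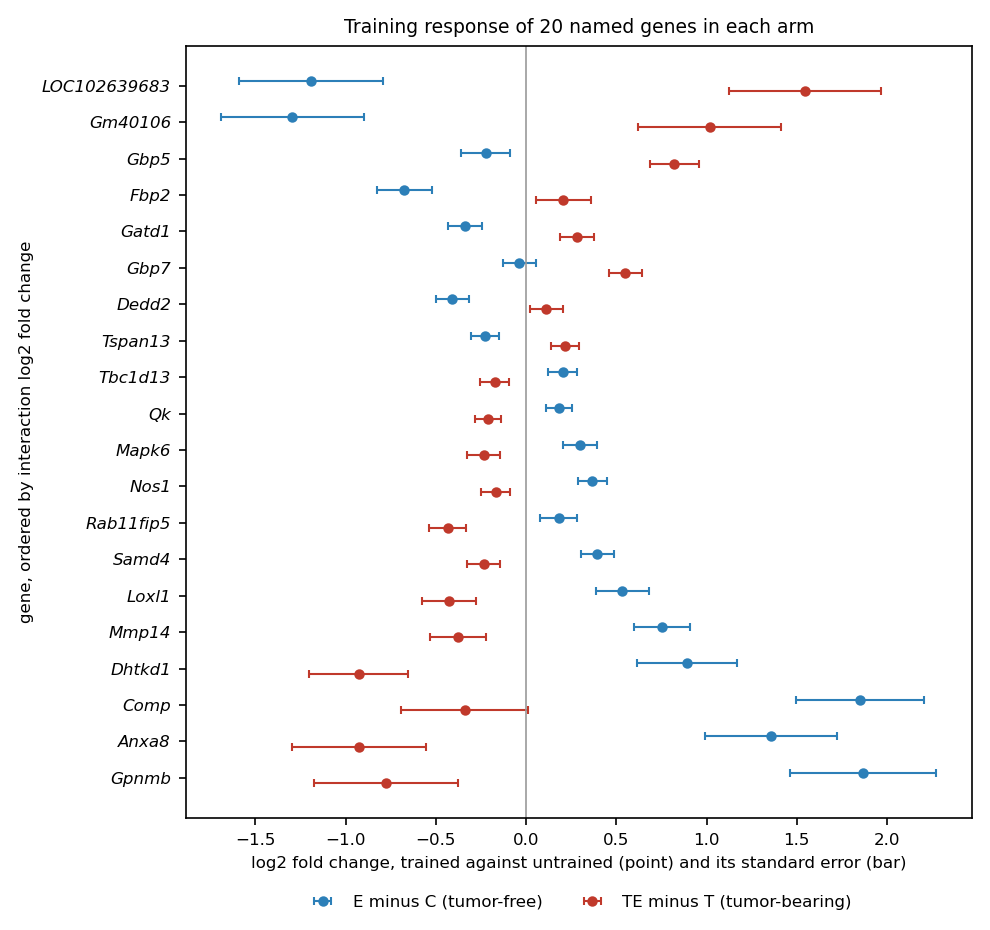
Training response of 20 named genes, with log2 fold change on the x axis and 1 gene per row; blue points are E minus C, red points TE minus T, and bars are standard errors from edgeR. In the upper 8 rows the red point lies to the right of 0 and the blue point to the left, and in the lower 12 rows the sides are exchanged, from 1.87 against -0.78 for Gpnmb to 0.20 against -0.17 for Tbc1d13.

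Mmp14 is a membrane-bound collagenase that cleaves fibrillar collagen and activates the gelatinase Mmp2. It lies on chromosome 14 at 54668878 to 54682821 (GRCm39, plus strand). Its level was 13.8, 15.4, 15.8 and 13.8 CPM in the C mice and 22.9, 27.3, 24.6 and 24.4 CPM in the E mice. It was 23.5, 17.4, 28.7 and 37.9 CPM in the T mice and 20.9, 20.3, 20.5 and 21.1 CPM in the TE mice. All E mice lay above all C mice, whereas the TE mice sat within a narrow band inside the wide range of the T mice. The training difference was 0.75 (SE 0.16) on the log2 scale without a tumor and -0.38 (SE 0.15) with a tumor. The interaction was -1.13 (SE 0.22), with an adjusted p-value of 0.389 by edgeR and 0.00363 by DESeq2. T2, the lowest T mouse, decided the edgeR call: without it the interaction was -1.29 with an edgeR adjusted p-value of 0.00774, and without T3 and T4 it was -0.73 with an edgeR adjusted p-value of 0.418.

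Gbp5 encodes a GTPase that is induced by interferon-gamma and takes part in defense against microbes inside cells. It lies on chromosome 3 at 142199739 to 142228105 (GRCm39, plus strand). The C mice had 9.74, 9.51, 9.80 and 11.3 CPM, and the E mice had 8.46, 8.54, 7.37 and 10.2 CPM. The T mice had 8.11, 9.04, 5.84 and 6.52 CPM, and the TE mice had 11.1, 12.9, 13.3 and 15.0 CPM. Every TE mouse lay above every T mouse, while C and E overlapped through E4 alone. The training difference was -0.22 (SE 0.14) without a tumor and 0.82 (SE 0.14, edgeR adjusted p-value 0.0711) with a tumor. The interaction was 1.05 (SE 0.19), with an adjusted p-value of 0.389 by edgeR and 0.00302 by DESeq2. TE4, the library with the most lymph node RNA, was also the highest for Gbp5, and without TE4, C3 and E1 the interaction was 0.98.

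Samd4 encodes an RNA-binding protein (Smaug) that represses translation and recruits the deadenylation machinery. It lies on chromosome 14 at 47120050 to 47343272 (GRCm39, plus strand). Its level was 32.3, 35.6, 40.3 and 34.1 CPM in C, and 52.0, 42.3, 44.7 and 48.0 CPM in E. It was 45.8, 51.3, 52.9 and 52.0 CPM in T, and 47.2, 46.9, 38.5 and 39.1 CPM in TE. C had the lowest mean, E did not overlap with C, and T and TE overlapped through T1, TE1 and TE2. The training differences were 0.39 (SE 0.09) and -0.24 (SE 0.09). The interaction was -0.63 (SE 0.13), with an adjusted p-value of 0.389 by edgeR and 0.0148 by DESeq2. Among the other 25 tested genes of the list of mRNA-binding and decay regulators, only Dcp1a, a decapping factor, also had an unadjusted interaction p-value under 0.05 (-0.24, SE 0.10), beside 5.51% of all genes below 0. Counted with Samd4, the 2 genes became 1 without E1 and 4 without C3. Samd4b, the paralog of Samd4, had an interaction of -0.04 (SE 0.12).

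Nos1 is the neuronal nitric oxide synthase, which in muscle is anchored to the fiber membrane by the dystrophin complex. It lies on chromosome 5 at 117918971 to 118096905 (GRCm39, plus strand). The C mice had 38.3, 38.5, 36.7 and 34.4 CPM, and the E mice had 47.8, 49.9, 45.1 and 47.8 CPM. The T mice had 45.5, 54.5, 54.4 and 41.0 CPM, and the TE mice had 41.6, 44.0, 45.0 and 43.2 CPM. E lay above C without overlap, and TE lay inside the range of T. The training differences were 0.37 (SE 0.08) and -0.17 (SE 0.08). The interaction was -0.54 (SE 0.11), with an adjusted p-value of 0.389 by edgeR and 0.0244 by DESeq2. Dmd, dystrophin itself, had an interaction of -0.28 (SE 0.14). Of 19 tested genes of the dystrophin complex and the nitric oxide synthases, 2 lay above 0 and 3 below 0 at an unadjusted p-value under 0.05, beside 3.7% and 5.51% of all genes, and the list median was 0.02. Nothing is read from these small counts. Nos3, the synthase of endothelium, lay on the opposite side to Nos1 (0.33, SE 0.14).

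**Figure D2:**
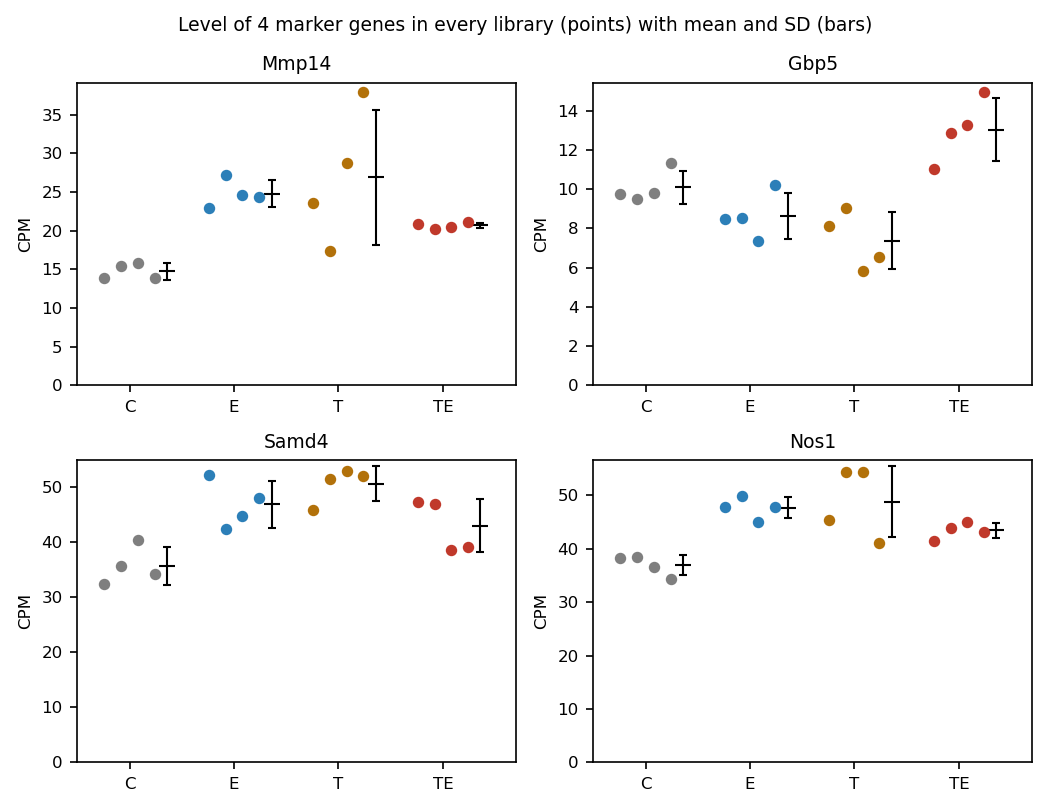
Level of Mmp14, Gbp5, Samd4 and Nos1 in CPM (y axis, from 0) by group (x axis); each point is 1 mouse and the bar beside it is the mean and SD of 4 mice. For Mmp14, Samd4 and Nos1 the lowest group is C, with means of 14.7, 35.6 and 37.0 CPM, while for Gbp5 the highest group is TE, with a mean of 13.0 CPM.

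Per length, the group means of these genes were moderate, at 3.88 to 6.96 FPKM for Mmp14, 2.39 to 4.28 FPKM for Gbp5, 2.78 to 3.87 FPKM for Samd4 and 3.81 to 5.04 FPKM for Nos1.

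In 2 genes the trained mice did not overlap with the untrained in either arm and were higher only in the tumor-bearing arm. Gatd1 (chromosome 7, 140987330 to 140994057, GRCm39, minus strand) had 8.28 to 9.26 CPM in C and 6.26 to 7.78 CPM in E, against 6.63 to 7.95 CPM in T and 8.68 to 8.86 CPM in TE. Its interaction was 0.62 (SE 0.13, edgeR adjusted p-value 0.389). The unnamed locus LOC102639683 had 0.991, 0.723, 0.810 and 0.989 CPM in C, and 0.131, 0.546, 0.532 and 0.324 CPM in E. It had 0.231, 0.138, 0.211 and 0.304 CPM in T, and 0.815, 0.780, 0.499 and 0.508 CPM in TE. These are few reads, and the interaction of 2.73 had an SE of 0.58 (edgeR adjusted p-value 0.389).

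In 5 genes the separation ran the other way, with E above C and TE below T. Dhtkd1, a subunit of the mitochondrial enzyme that breaks down 2-oxoadipate from lysine and tryptophan, had the widest split. It had 0.589 to 0.972 CPM in C and 1.18 to 1.60 CPM in E, against 1.24 to 1.80 CPM in T and 0.462 to 0.990 CPM in TE, with an interaction of -1.82 (SE 0.39, edgeR adjusted p-value 0.389). These are few reads, 17 to 65 per library. The others are Rab11fip5, an effector of recycling endosomes (-0.62, SE 0.15), Mapk6, an atypical MAP kinase (-0.53, SE 0.13), Qk, an RNA-binding splicing regulator (-0.39, SE 0.10), and Tbc1d13, an activator of Rab GTP hydrolysis (-0.38, SE 0.11). Rab11fip5 had 28.8 to 33.3 CPM in C, 33.3 to 38.8 CPM in E, 34.3 to 51.8 CPM in T and 29.4 to 33.1 CPM in TE. Tbc1d13 had 8.81 to 9.78 CPM in C, 10.1 to 11.4 CPM in E, 10.3 to 10.7 CPM in T and 8.38 to 10.0 CPM in TE. For Qk and Rab11fip5 the gap between C and E was the width of a rounding step, with the highest C mouse and the lowest E mouse both at 214 CPM and both at 33.3 CPM. The gaps of these small differences are close to the spread between mice, and the count of non-overlapping genes was 6 on FPKM or on CPM without TMM factors.

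Of the other named genes that were lower with training in the tumor-bearing arm, Gpnmb, a membrane glycoprotein of macrophages and matrix-forming cells, had the most negative value of the 20 named genes, -2.64 (SE 0.57, edgeR adjusted p-value 0.389). It had 1.39 to 1.66 CPM in C and 9.96, 4.75, 3.49 and 3.91 CPM in E. It had 1.76, 2.02, 1.97 and 6.71 CPM in T and 1.59 to 2.28 CPM in TE. The E mice stood above all C and TE mice, and T4 was the T mouse that reached the E range. Without T4 the interaction was -1.94. Anxa8, a calcium-dependent membrane binder, had group means of 0.373 (C), 0.960 (E), 0.654 (T) and 0.343 CPM (TE) and an interaction of -2.28 (SE 0.52). This rests on few reads, 7 to 43 per library. Of those higher with training in the tumor-bearing arm, Fbp2, the fructose bisphosphatase of muscle, had group means of 83.5, 52.3, 56.1 and 64.7 CPM and an interaction of 0.88 (SE 0.22). Dedd2, a nuclear death effector domain protein, had 12.3, 9.29, 10.4 and 11.2 CPM (0.52, SE 0.13). Tspan13, a tetraspanin, had 84.8, 72.4, 52.1 and 60.4 CPM (0.44, SE 0.11). The unnamed Gm40106 had 1.04, 0.422, 0.422 and 0.855 CPM (2.31, SE 0.56), on 9 to 59 reads per library. Without TE4, C3 and E1 its interaction was 1.59.

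Interferon-induced genes lay mostly on the tumor-bearing side. Of 36 genes listed as interferon-induced GTPases and interferon response, 32 were tested, 28 of them lay above 0, and their median interaction was 0.41. At an unadjusted p-value under 0.05, 12 lay above 0 and 2 below 0, against 3.7% and 5.51% of all genes. By value most of this lay in the tumor-bearing arm, and 19 of the 32 had opposite signs in the 2 arms (all genes 48.4%). The median training difference was -0.03 in tumor-free and 0.40 in tumor-bearing mice, and 17 genes were higher in TE than in T at an unadjusted p-value under 0.05, with none lower, against 2.87% of all genes that were higher. None of them passed the edgeR test in TE against T. The mean list level, in centered log2(CPM + 0.5), was 0.181, 0.301, 0.120 and 0.409 in the TE mice and -0.0936, -0.0337, -0.177 and -0.165 in the T mice. Every TE mouse lay above every T mouse, while C (-0.124 to -0.0223) and E (-0.207 to 0.154) overlapped.

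The members above 0 at this p-value included the guanylate-binding proteins Gbp5, Gbp7, Gbp4, Gbp3 and Gbp9, the immunity-related GTPases Irgm2, Igtp, Iigp1, Tgtp1 and Tgtp2, and the T cell chemokine Cxcl9. Cxcl9 had 2.49 CPM in TE4, against 0.362 to 0.527 CPM in the other TE mice and 0.0866 to 0.525 CPM in T. Its interaction was 2.24 (SE 0.99), and 1.41 without TE4, C3 and E1. Gbp7 (chromosome 3, 142236044 to 142255910, GRCm39, plus strand, next to Gbp5) had 18.0 to 23.4 CPM in C, 20.002 to 23.1 CPM in E, 19.0 to 20.3 CPM in T and 24.8 to 32.8 CPM in TE. TE did not overlap with any other group, the training differences were -0.04 (SE 0.09) and 0.55 (SE 0.09), and the interaction was 0.59 (SE 0.13, edgeR adjusted p-value 0.389). Gbp4 had 34.5 to 43.5 CPM in T and 57.3 to 72.0 CPM in TE, with an interaction of 0.73 (SE 0.22). Tgtp1 had 3.43 to 4.73 CPM in T and 5.02 to 9.95 CPM in TE (1.27, SE 0.33), and Igtp had 10.1 to 12.9 CPM in T and 14.006 to 17.9 CPM in TE (0.48, SE 0.16). Irgm2 overlapped, with 11.4 to 15.5 CPM in T and 14.1 to 26.5 CPM in TE (0.80, SE 0.23). Gbp10 lay on the other side (-1.08, SE 0.35), with group means of 42.9, 81.2, 66.5 and 59.7 CPM, as did the receptor Ifngr1 (-0.29, SE 0.14). Genes typical of type I interferon had interactions of 0.75 (SE 0.45) for Ifit1, 0.93 (SE 0.45) for Isg15 and 0.01 (SE 0.34) for Rsad2. The Gbp, Irgm and Tgtp families hold similar copies, so reads may have been split between them, and values of single members are uncertain.

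The promoters of this group are shown because interferon-gamma acts through a palindrome called GAS (TTCNNNGAA) and the interferon-stimulated response element contains the core GAAANNGAA. Both were searched on both strands in RefSeq promoters of 300 bases, 250 before and 50 after the gene start, on GRCm38.p6, an older build than the GRCm39 of the counts. Among the 12 members above 0 at an unadjusted p-value under 0.05, 8 had a promoter in the table, and 6 of those held both motifs (Gbp5, Gbp7, Igtp, Irgm2, Tgtp1 and Tgtp2). Among the 20 other tested members, most of which also lay above 0, 17 had a promoter and 0 held both, although 9 held the core alone and 2 held GAS alone. Over all 32851 promoters, 8.3% held GAS, 8.56% held the core and 1.07% held both. A match is a description of letters and not a bound site, several of these genes are recent copies of each other, and no test was made. The 250 bases before the start of Gbp5 (chr3:142496684-142496933, plus strand) and Gbp7 (chr3:142530086-142530335, plus strand) are printed with both motifs in capitals, the core as its reverse complement.
Gbp5: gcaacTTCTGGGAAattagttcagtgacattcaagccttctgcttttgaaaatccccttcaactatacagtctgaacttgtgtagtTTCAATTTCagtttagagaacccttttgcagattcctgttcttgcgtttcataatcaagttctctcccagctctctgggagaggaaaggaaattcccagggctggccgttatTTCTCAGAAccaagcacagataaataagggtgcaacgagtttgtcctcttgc
Gbp7: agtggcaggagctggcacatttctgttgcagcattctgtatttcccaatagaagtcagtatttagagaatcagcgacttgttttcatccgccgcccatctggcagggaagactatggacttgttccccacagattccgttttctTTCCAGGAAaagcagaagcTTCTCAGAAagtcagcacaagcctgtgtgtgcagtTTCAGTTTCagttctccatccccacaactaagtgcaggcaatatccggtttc

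In Igtp, Irgm2, Tgtp1 and Tgtp2 the motifs stood side by side, with 2 bases between the end of GAS and the start of the core, and did not overlap. Irgm1, another immunity-related GTPase, held the core and no GAS, and Ifi47 held neither. The 59 bases around them are shown for Igtp (chr11:58199491-58199549, plus strand), Irgm2 (chr11:58214882-58214940, plus strand), Tgtp1 (chr11:48992296-48992354, minus strand) and Tgtp2 (chr11:49064255-49064313, minus strand), again on GRCm38.p6 with both motifs in capitals.
Igtp: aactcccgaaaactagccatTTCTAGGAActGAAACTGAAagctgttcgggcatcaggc
Irgm2: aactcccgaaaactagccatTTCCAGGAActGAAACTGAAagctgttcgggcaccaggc
Tgtp1: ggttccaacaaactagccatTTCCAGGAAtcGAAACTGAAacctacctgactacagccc
Tgtp2: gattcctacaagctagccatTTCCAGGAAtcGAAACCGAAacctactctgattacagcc
The windows of Igtp and Irgm2 shared 57 of 59 letters at the same place, and those of Tgtp1 and Tgtp2 shared 45 of 59. GAS ended 36 bases before the start of Igtp, 66 before Irgm2, 79 before Tgtp1 and 72 before Tgtp2.

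Genes of antigen presentation lay on the same side. All 19 tested genes were above 0, with a median interaction of 0.50 (0.27 without TE4), and 5 of them had an unadjusted p-value under 0.05, beside 3.7% of all genes (Psme1, H2-K1, Psmb8, Psmb9 and Tap2). These encode a proteasome activator, a class I MHC heavy chain, 2 immunoproteasome subunits and a subunit of the peptide transporter. The list median was -0.20 in tumor-free and 0.29 in tumor-bearing mice. H2-K1 had 42.2 to 58.0 CPM in C, 36.4 to 55.1 CPM in E, 42.9 to 56.7 CPM in T and 58.5 to 77.5 CPM in TE, and its interaction was 0.56 (SE 0.19). Psmb8 had 9.59 to 12.9 CPM in C, 7.96 to 11.7 CPM in E, 9.81 to 14.4 CPM in T and 11.7 to 21.2 CPM in TE, where TE4 was the highest mouse (0.70, SE 0.25). H2-K1 separated TE from T, and Psmb8 did not.

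TE4 also carried the lymph node RNA, and in bulk muscle a change in the number of cells of a type and a change in RNA per cell cannot be told apart. Of the 22 lymphocyte and lymph node markers tested, 22 lay above 0, 15 of them at an unadjusted p-value under 0.05, beside 3.7% of all genes, with a median interaction of 4.46. Without TE4, 0 of the 22 had such a p-value and the median was 0.53, and without C3 alone 3 had. Glycam1, an adhesion molecule of lymph node vessels and the gene with the smallest DESeq2 adjusted p-value, had 27.4 CPM in TE4 and 0 CPM in the other TE mice and in all T mice. The interferon list without TE4, C3 and E1 had 13 genes above 0 at an unadjusted p-value under 0.05, with a median of 0.56, and antigen presentation had 5, with a median of 0.28. Without T3 and T4 the interferon list had 11 such genes and antigen presentation had 3. Without TE4 alone the counts were 9 and 3, and without E1 alone they were 16 and 11. The 5 of antigen presentation also became 3 without E3 or E4, 8 without T2, 9 without TE1 and 10 without C1.

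**Figure D3:**
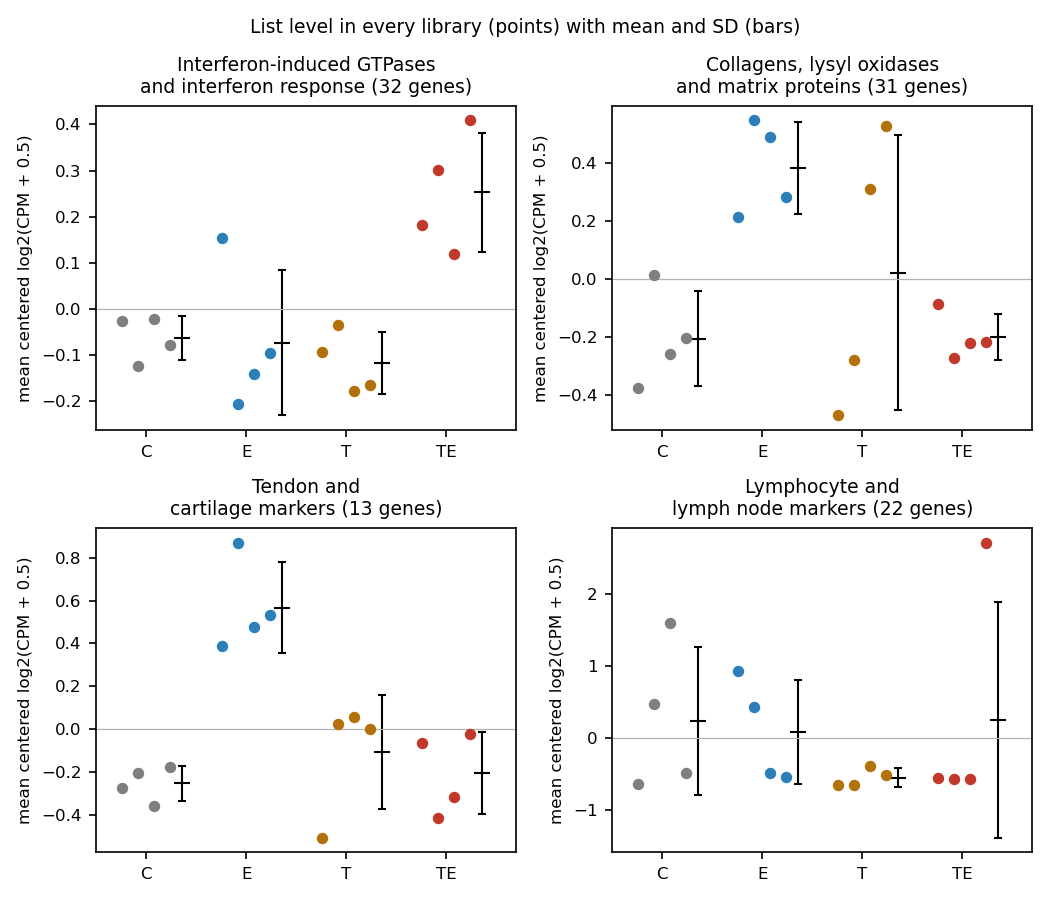
Mean level of 4 gene lists in centered log2(CPM + 0.5) (y axis) by group (x axis); each point is 1 mouse, and the bar is the mean and SD of 4 mice. The interferon list sets all TE mice (0.120 to 0.409) above all T mice (-0.177 to -0.0337), the collagen list sets E above C with T split into a low and a high pair, tendon and cartilage markers are highest in E, and lymph node markers are high in TE4, C3 and E1.

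Matrix genes lay on the tumor-free side. Of 31 tested collagens, lysyl oxidases and matrix proteins, 31 lay below 0, with a median interaction of -0.81, and 26 of them had an unadjusted p-value under 0.05 (background 5.51%). All 31 were higher in E than in C by value, with a median training difference of 0.58, and 25 had an unadjusted p-value under 0.05 there, against 8.51% of all genes that were higher in E. In the tumor-bearing arm the median was -0.17, 5 of 31 were higher in TE than in T, and 7 were lower at an unadjusted p-value under 0.05, against 3.01% of all genes. None passed the edgeR test in either arm. The list level was -0.377, 0.0134, -0.258 and -0.203 in C and 0.215, 0.548, 0.489 and 0.284 in E. It was -0.471, -0.281, 0.311 and 0.529 in T and -0.0861, -0.272, -0.222 and -0.219 in TE. E stood above C, whereas the T mice split into T1 and T2 below and T3 and T4 above all TE mice.

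Genes of fibrils, basement membrane and crosslinking are given as examples. Col1a1, a chain of type I collagen, had 87.5 to 141 CPM in C, 159.6 to 219 CPM in E, 79.5 to 256 CPM in T and 96.7 to 118 CPM in TE, with an interaction of -1.34 (SE 0.36). Fbn1, the fibrillin of microfibrils, had group means of 37.9, 80.1, 56.4 and 43.7 CPM (-1.45, SE 0.34), and Fn1, fibronectin, had 71.3, 128, 100 and 83.2 CPM (-1.12, SE 0.32). Col4a1 and Col4a2, of the basement membrane, had interactions of -0.76 (SE 0.26) and -0.71 (SE 0.24). Loxl1, which crosslinks elastic fibers (chromosome 9, 58195014 to 58220495, GRCm39, minus strand), had 11.8 to 17.6 CPM in C and 18.5 to 22.5 CPM in E. It had 13.9, 13.7, 21.7 and 21.4 CPM in T and 12.5 to 14.1 CPM in TE, with an interaction of -0.96 (SE 0.21, edgeR adjusted p-value 0.389). In Col1a1, Fbn1, Fn1 and Loxl1 C and E did not overlap and T3 and T4 were the highest T mice, whereas Col4a2 overlapped between C and E.

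In the tumor-bearing arm this pattern depended on T3 and T4. Without both, 11 of 31 genes in place of 26 had an unadjusted p-value under 0.05 and the median interaction was -0.31. Without T4 alone the count was 19, the lowest of all single omissions, and without T1 it was 28. Tnc and Postn, matrix proteins of injured and regenerating tissue, show it most: Tnc had 2.28, 2.13, 3.55 and 38.2 CPM in the T mice and Postn had 10.3, 11.4, 24.4 and 181 CPM. Without T4 the interaction of Tnc was -1.73 in place of -3.86, and that of Postn was -0.66 in place of -2.55. T4, the highest for both, was also the library with 71.5 CPM of Myh3. T3 and T4 were also the highest T mice for macrophage and neutrophil markers, and the part of those cells in the matrix values was not tested. Markers of other cells also moved with the matrix genes in E against C, with a median of 1.18 for tendon and cartilage markers (12 of 13 higher in E by value) and 1.39 for adipocyte markers (11 of 12), and their part was not tested either.

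The matrix proteases and their inhibitors went with the collagens. Of 28 tested genes, 26 lay below 0 (median -0.52), and 10 had an unadjusted p-value under 0.05, all below 0, beside 5.51% of all genes. Besides Mmp14 these included the gelatinase Mmp2 (-0.63, SE 0.22), Mmp19, Mmp3, the aggrecanase Adamts5, Adamts15, the procollagen peptidase Adamts2, and the inhibitors Timp1 and Timp2 (-0.32, SE 0.12). Mmp2 had 48.5 to 71.5 CPM in C, 71.6 to 93.9 CPM in E, 45.1 to 81.8 CPM in T and 50.1 to 52.4 CPM in TE. Without T3 and T4, 4 of the 28 had an unadjusted p-value under 0.05, and without T3 alone 5 had.

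Training without a tumor passed the edgeR test for 13 genes (0.0881%), all higher in E than in C, and 7 of them had a fold change above 2 (C7, Fst, Chad, Fmod, Tnmd, Arntl and Prkcd). The count of 7 was 0 without C1, C3 or E4, 1 without C2 or E2, 2 without C4 and 2 without TE4, C3 and E1, and it was 12 without T2, 14 without T4, 17 without E1 and 21 without T3. Training with a tumor passed for 0 genes (0%), with a smallest edgeR adjusted p-value of 0.0711, 867 genes at an unadjusted p-value under 0.05 and, by DESeq2, 4 genes past both thresholds. The 13 genes were not opposite responders. All 13 had an interaction below 0 with an unadjusted p-value under 0.05, and in 0 of them did TE against T have the opposite sign. Since E against C enters the interaction, the 13 are given by their values and the interaction is no separate support.

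Of the 13 genes, 3 (Fmod, Chad and Tnmd) were on the list of tendon and cartilage markers. Fmod, fibromodulin, a proteoglycan that orders collagen fibrils in tendon, had 12.4, 16.2, 19.1 and 22.2 CPM in C and 52.8, 95.1, 69.9 and 59.9 CPM in E. It had 11.4, 39.4, 22.7 and 16.6 CPM in T and 26.7, 19.6, 14.5 and 29.5 CPM in TE. E stood above all other mice, with 1.99 (SE 0.31, edgeR adjusted p-value 0.0206) in E against C and 0.00 (SE 0.31) in TE against T. Chad, chondroadherin, a collagen-binding protein of cartilage, had 0.189 to 0.522 CPM in C, 2.13 to 4.67 CPM in E, 0.249 to 1.55 CPM in T and 0.613 to 1.07 CPM in TE, and rose in E by 3.26 (SE 0.51, edgeR adjusted p-value 0.0206). Tnmd, tenomodulin, a membrane protein of tenocytes, had 1.34 to 2.47 CPM in C, 3.67 to 6.98 CPM in E, 1.10 to 2.68 CPM in T and 1.73 to 2.17 CPM in TE, and rose in E by 1.56 (SE 0.26, edgeR adjusted p-value 0.0274). Comp, cartilage oligomeric matrix protein, was not one of the 13, as its edgeR adjusted p-value in E against C was 0.0515. It had 0.671 to 1.57 CPM in C, 1.94 to 7.04 CPM in E, 1.27 to 2.00 CPM in T and 1.09 to 1.66 CPM in TE, with an interaction of -2.19 (SE 0.50, edgeR adjusted p-value 0.42).

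Tendon and cartilage markers were also listed as markers of other cells that a muscle sample may hold. Of 13 tested, 11 lay below 0 and 7 of these had an unadjusted interaction p-value under 0.05, beside 5.51% of all genes, with medians of 1.18 in E against C, where 12 of the 13 were higher by value, and -0.22 in TE against T. The summed level was 109.2 to 178.4 CPM in E, against 54.8 to 61.3 CPM in C, 47.8 to 115.3 CPM in T and 51.1 to 93.4 CPM in TE. The tendon transcription factors differed from each other. Scx had an interaction of 0.18 (SE 0.34) and group means of 3.03, 2.29, 3.31 and 2.84 CPM, and Mkx had an interaction of -1.76 (SE 0.77) and low group means of 0.223, 0.506, 0.348 and 0.232 CPM, with a difference of 1.18 (SE 0.54, edgeR adjusted p-value 0.338) in E against C. How much tendon was dissected with each muscle is not given, and its part in these values was not tested. The list had 6 such genes without T3 and T4 and 8 without TE4, C3 and E1.

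The others of the 13 had various functions. Fst, follistatin, which binds and blocks myostatin and activins, had 3.29, 3.27, 3.43 and 4.12 CPM in C and 6.65, 7.53, 7.37 and 7.40 CPM in E. It had 3.14, 3.12, 4.45 and 3.59 CPM in T and 4.43, 5.07, 4.49 and 3.32 CPM in TE. All E mice lay above all other mice, the difference from C was 1.04 (SE 0.15, edgeR adjusted p-value 0.016), and TE against T was 0.27 (SE 0.15). C7, a terminal complement component, rose by 1.58 (SE 0.21, edgeR adjusted p-value 0.0107) in E and was 0.68 (SE 0.21) higher in TE. Serpinf1, an anti-angiogenic secreted protein, rose by 0.66 (SE 0.10), Col5a3, a chain of type V collagen, by 0.86 (SE 0.14), Pde3a, a cyclic nucleotide phosphodiesterase, by 0.92 (SE 0.16), and Prkcd, a protein kinase C, by 1.01 (SE 0.17). Sash1, a scaffold protein, and Sdc1, a syndecan, rose by 0.66 (SE 0.12) and 0.71 (SE 0.13). In TE against T these 6 genes differed by 0.06 to 0.38.

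**Figure D4:**
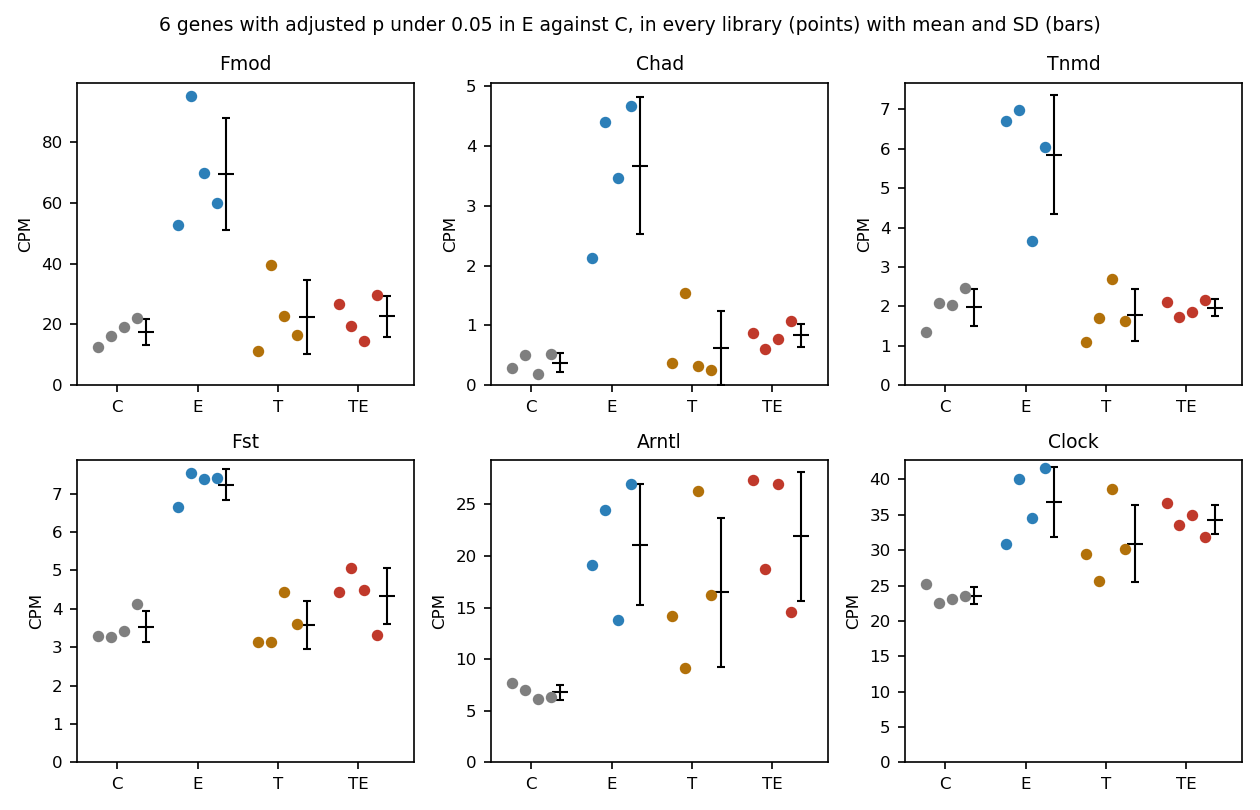
Level of 6 of the 13 genes with an edgeR adjusted p-value under 0.05 in E against C, in CPM (y axis, from 0) by group (x axis); each point is 1 mouse, and the bar is the mean and SD of 4 mice. Fmod, Chad, Tnmd and Fst are highest in E, with T and TE overlapping near C, while Arntl and Clock are lowest in C, with E, T and TE overlapping.

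The 2 remaining genes of the 13 belong to the circadian clock and had another order of groups. Arntl, which encodes BMAL1, had 7.70, 7.05, 6.13 and 6.29 CPM in C and 19.1, 24.5, 13.8 and 27.0 CPM in E. It had 14.2, 9.18, 26.3 and 16.2 CPM in T and 27.3, 18.8, 26.9 and 14.6 CPM in TE. C stood below every other mouse, and 3 of the 4 untrained tumor-bearing mice lay within the range of E. The differences were 1.63 (SE 0.28, edgeR adjusted p-value 0.028) without and 0.41 (SE 0.26) with a tumor. Clock, the partner of BMAL1, rose by 0.64 (SE 0.11, edgeR adjusted p-value 0.0315) without a tumor and was 0.15 (SE 0.11) higher with one. Npas2, a paralog of Clock, had group means of 0.0896, 1.03, 0.752 and 0.820 CPM, and its C libraries lay near the floor of 3 counts. Per2, which represses the pair, ran the other way with 24.4 to 27.2 CPM in C, 15.2 to 18.9 CPM in E, 19.7 to 33.3 CPM in T and 17.3 to 22.7 CPM in TE (0.47, SE 0.20). Of 19 tested clock genes, 2 lay above 0 and 4 below 0 at an unadjusted p-value under 0.05, beside 3.7% and 5.51% of all genes. The 2 above became 0 without E1, E2, T3, T4 or TE2 and 1 without C2, C3, C4, TE3 or TE4. Dbp, a clock output, had -1.08 in tumor-free and -1.09 in tumor-bearing mice, so that its interaction was -0.02 (SE 0.72). The hour of sampling is not given for the groups, and its part in these values was not tested.

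Genes of muscle wasting had a median interaction of -0.28 over 29 tested, 8 of them below 0 at an unadjusted p-value under 0.05, beside 5.51% of all genes, and none above, beside 3.7%. Besides Fst these were the ubiquitin ligase subunits Fbxo40 (-0.49, SE 0.16) and Fbxo30 (-0.38, SE 0.16), the factors Foxo1, Foxo3 (-0.34, SE 0.13) and Klf15 (-0.52, SE 0.20), the stress protein Sesn1 and the activin subunit Inhba. Foxo3 had 29.7 to 31.1 CPM in C, 29.6 to 36.3 CPM in E, 36.7 to 49.3 CPM in T and 33.5 to 39.5 CPM in TE. The members do not share a role, as Fst opposes wasting and the ligases promote it. The main ligases had wide errors, at -0.97 (SE 0.53) for Fbxo32 (atrogin-1) and -0.36 (SE 0.33) for Trim63 (MuRF1). Fbxo32 ranged from 421 to 1300 CPM among the T mice and from 282 to 979 CPM among the TE mice. Without T3 and T4, 5 of the 29 had an unadjusted p-value under 0.05 and the median was -0.19, without E3 alone 3 had, without T3 alone 4 and without TE2 alone 5. The median was -0.18 without T3 alone.

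Sarcomere and load-responsive genes had a median interaction of -0.19 over 44 tested, with 3 above 0 and 11 below 0 at an unadjusted p-value under 0.05, beside 3.7% and 5.51% of all genes. Among the 11 were the embryonic myosin Myh3 (-3.68, SE 1.14), Myh2, the myosin of type IIA fibers (-0.52, SE 0.18), the filamin Flnc (-0.85, SE 0.28), the M-band protein Myom3 and Ankrd1, Ankrd2, Csrp3 and Xirp1. The 3 above 0 were Tnni2, Tpm1 and Myoz1, at 0.27 to 0.28. Myh3 had 2.25, 2.93, 7.61 and 71.5 CPM in T against 1.36 to 2.50 CPM in TE, with T4 far above the other T mice, and its interaction was -1.37 without T4. Without T3 and T4 the median of the list was -0.01, 1 gene was below 0 at an unadjusted p-value under 0.05 in place of 11 and 0 were above, and without TE4, C3 and E1 the counts were 2 below and 5 above. The 11 below became 4 to 7 when T3, C3, E4, TE2, E2 or TE4 was left out alone, and the 3 above became 1 without C1 or C2 and 5 without C3, T1 or T2. Without T4 alone the median was -0.09.

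Genes of energy metabolism had median interactions near 0. The 40 tested genes of the respiratory chain had a median interaction of 0.11, with 36 above 0 and 3 at an unadjusted p-value under 0.05 (Ndufv2, Ndufs4 and Cox7a1, 0.20 to 0.25). That count was 0 without C2, E3 or T3, 1 without C1, E1, TE1 or TE2, and 11 without C3. The 3 of 40 compare with 3.7% of all genes. By value 0 of the 40 were higher in E than in C (median -0.11), 7 were lower at an unadjusted p-value under 0.05 against 5.67% of all genes, and TE against T had a median of 0.00. Of 33 genes of fatty acid uptake and oxidation, Slc25a20, the carnitine carrier of mitochondria, was the 1 with an unadjusted p-value under 0.05 (0.43, SE 0.12), with group means of 101, 76.9, 84.2 and 86.7 CPM. The number above 0 at this p-value was 6 without E2 and 2 without C1 or T1. In that list 12 genes were lower in E than in C and 5 lower in TE than in T at an unadjusted p-value under 0.05, with none higher in either arm, against 5.67% and 3.01% of all genes. Among 36 regulators of endurance training, 3 lay below 0 at an unadjusted p-value under 0.05 (all genes 5.51%), the nuclear receptors Esrrg (-0.78, SE 0.21) and Esrrb and the fast-fiber factor Eya1, and this count was 5 without E2 or TE3. Ppargc1a, the coactivator PGC-1alpha, had group means of 30.7, 39.8, 40.1 and 42.6 CPM and an interaction of -0.29 (SE 0.15).

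The remaining lists had medians within 0.13 of 0, and nothing is read from their small counts, which stand beside 3.7% of all genes above 0 and 5.51% below 0. In insulin and growth factor signaling 3 of 30 genes lay below 0 at an unadjusted p-value under 0.05 (Igf2r, Insr and Pik3r1), and Igf1 had an interaction of 0.09 (SE 0.39). Calcium handling had 2 of 25 below 0 (Sln and Casq2), immediate early genes 2 of 21 (Atf3 and Maff) and endothelial genes 1 of 27 (Rgcc). Without T3 and T4 the interaction of Sln was -1.02 in place of -2.68, and that of Casq2 was 0.05 in place of -0.79. Without TE4, C3 and E1 that of Atf3 was -0.64 in place of -1.56. Satellite cell regulators had 2 above 0 (Myf6 and Cav1) and 2 below 0 (Heyl and Notch3) of 17, and genes of the neuromuscular junction had 0 of 18. The median of the immediate early genes turned from -0.13 to 0.12 without T3.

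**Figure D5:**
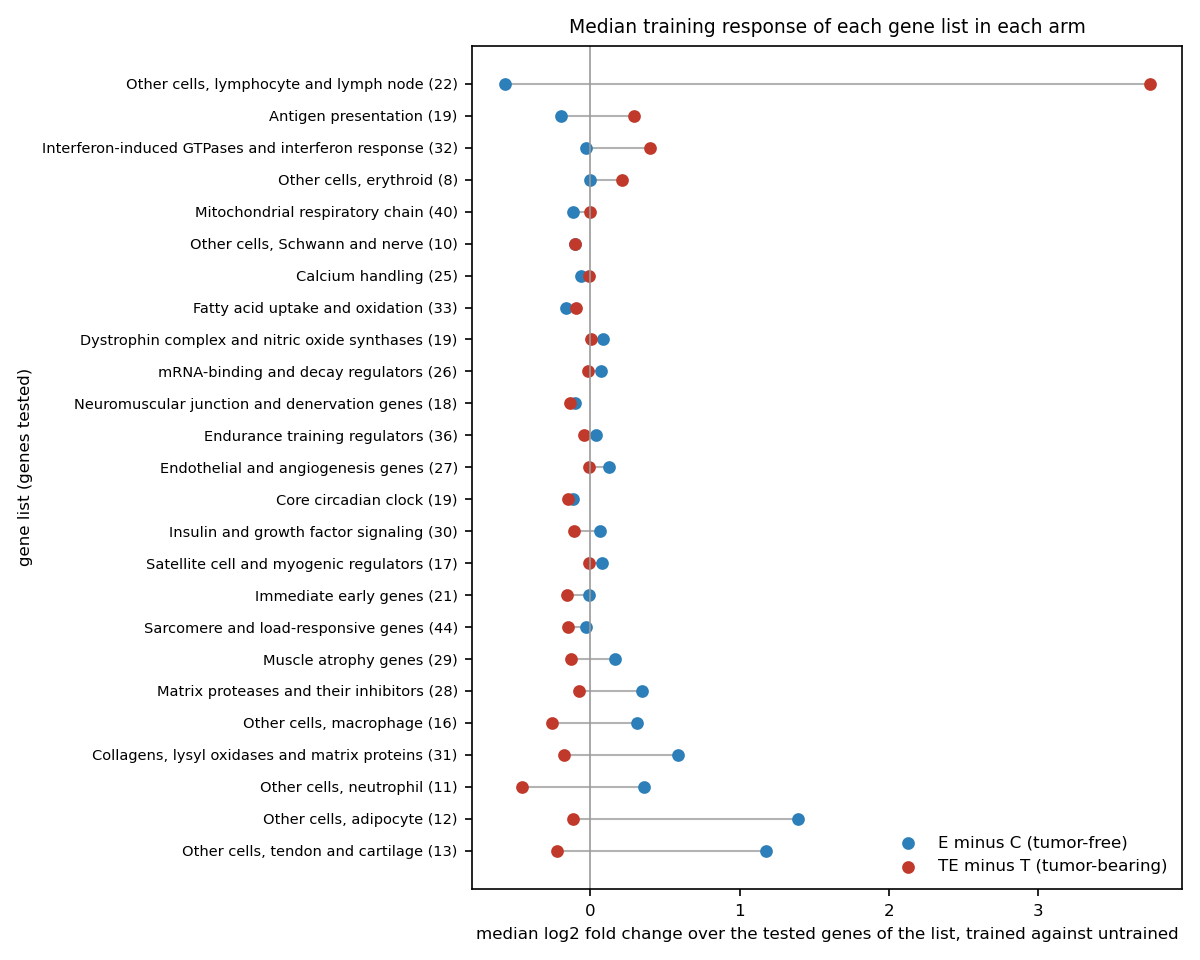
Median log2 fold change of trained against untrained mice over the tested genes of each list (x axis), with 1 list per row; blue points are tumor-free mice, red points tumor-bearing mice. Collagens (0.58 and -0.17) and tendon and cartilage markers (1.18 and -0.22) are spread to opposite sides of 0, interferon genes are apart by the red point alone (-0.03 and 0.40), and respiratory chain genes lie near 0 in both arms (-0.11 and 0.00).

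Markers of other cells are given by their counts and medians, beside 3.7% of all genes above 0 and 5.51% below 0 at an unadjusted p-value under 0.05. Macrophage markers had 14 of 16 below 0 with a median of -0.61, none of them at an unadjusted p-value under 0.05, and the median was -0.36 without T4, -0.39 without E3 and 0.02 without T3 and T4. Without C2 alone 4 of them had such a p-value and the median was -0.85. Adipocyte markers had 12 of 12 below 0 (median -1.20), 1 of them at an unadjusted p-value under 0.05 (0 without E2 or T3, up to 6 without T1), and medians of 1.39 in tumor-free and -0.11 in tumor-bearing mice; the median interaction was -0.13 without T3 and T4, -0.81 without E2 and -2.01 without C2. Adipoq, the adipocyte hormone adiponectin, had group means of 5.99, 16.3, 13.6 and 11.1 CPM. Neutrophil markers had 7 of 11 below 0 (median -0.82, which was -0.21 without T4, -0.35 without E4, 0.17 without T3 and T4, -1.23 without T2 and -1.30 without C2) and summed to 11.1 to 56.0 CPM in T and 14.6 to 28.7 CPM in TE, against 2.31 to 17.0 CPM in C and 2.86 to 6.91 CPM in E. Erythroid markers had 2 of 8 above 0 at an unadjusted p-value under 0.05 (Bpgm and Hba-a2), which was 1 of 8 when C1, C2, E1, E2, T2, T3 or TE4 was left out, and Schwann and nerve markers had 0 of 10.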

How the data were processed

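Polyadenylated RNA of 16 gastrocnemius samples was sequenced. The authors trimmed the reads with fastp 0.20.1, aligned them to GRCm39 with HISAT2 2.1.0 and deposited raw gene counts from HTSeq 0.11.2 (versions per the submitters' processing notes). The authors also deposited FPKM values, which divide these counts by gene length and library total. The annotation release and strand setting are not given in the sources used here, so overlapping genes and near-identical paralogs are uncertain. The paper and the labels name different versions of the library kit. The label for batch is the same in all libraries, so no batch could be compared.

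Counts were tested with edgeR 4.0.16 in R 4.3.3 (filterByExpr, TMM factors, quasi-likelihood test, 1 coefficient per group, 16 libraries), two-sided, with Benjamini-Hochberg adjustment over the 14749 genes that passed. The contrast was (TE − T) − (E − C), and genes were called at an adjusted p-value under 0.05 if their fold change also exceeded 2 or was less than 0.5. The study's methods name DESeq2, which was used as an alternative (1.42.0), as was limma 3.58.1. The procedure was tested on simulated counts. Levels are CPM with TMM factors, mean of 4 mice with SD. P-values rest on the spread between mice within groups, as 1 estimate per gene that the 4 groups share and that borrows from other genes. Unequal spreads, such as SDs of 8.68 CPM in T and 0.361 CPM in TE for Mmp14, are not modeled by group. The limit of 3 counts covers counting error only. List levels are the mean over genes of log2(CPM + 0.5) after centering each gene on its mean. Columns of other samples numbered 0.

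The genes named in the text were Mmp14, Gbp5, Samd4 and Nos1, the 8 genes with the smallest interaction p-value on each side among those with opposite signs, the non-overlapping genes, and members of 25 gene lists with an unadjusted p-value under 0.05. Genes called in E against C or by DESeq2, and members of lists above this p-value, were named after their values were seen. Some members counted in the lists are not reported here by name. The members, lists and tests were chosen with earlier results of these data known, and the joint omission of T3 and T4 and the alternatives for gene lists and single list genes were chosen after seeing the data. Positions are from GENCODE on GRCm39 (17 of 20 named genes found). Plots used Python 3.11.15 and matplotlib 3.10.9.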

Additional observations from a re-analysis of the deposited data

Results flagged for a closer look

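In 9 of 180 groups of 4 mice, 1 mouse lay far from the other 3 (its gap to the nearest mouse, divided by the range, was above Dixon's critical value), which is about the 1 in 20 that chance flags. Among the named genes, Gbp5 in C4 had a ratio of 0.842 (11.3 CPM, against 9.51 to 9.80 CPM in the other C mice), Gpnmb in T4 had 0.948 (6.71 CPM, against 1.76 to 2.02 CPM) and Mapk6 in T2 had 0.925 (34.3 CPM, against 26.6 to 27.2 CPM). Among the list levels, lymph node markers in TE4 had 0.994, immediate early genes in T3 had 0.968, respiratory chain genes in T3 had 0.906, tendon and cartilage markers in T1 had 0.902, muscle atrophy genes in TE3 had 0.84 and neuromuscular junction genes in C3 had 0.838.

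The 7 genes whose trained and untrained mice did not overlap in opposite directions differed between the arms by 0.62 for Gatd1, 2.73 for LOC102639683, -1.82 for Dhtkd1, -0.62 for Rab11fip5, -0.53 for Mapk6, -0.39 for Qk and -0.38 for Tbc1d13. In the edgeR test of this difference their adjusted p-values were 0.389 to 0.438, so none passed.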

How the results depend on the processing

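The interaction had 0 called genes with edgeR, 13 with DESeq2 and 315 at an unadjusted p-value under 0.05 with a fold above 2. With 1 mouse left out it ranged from 0 to 1 (the 1 being Mmp14 without T2). Opposite responders numbered 1211, 735 without T3 and T4, and 801 (without T3) to 1508 (without T2) with 1 mouse left out. Genes called in E against C numbered 7, and were 41 with DESeq2, 16 with no filter on low counts, 31 in a fit of only the 8 libraries, 2 without TE4, C3 and E1, and 0 (without C1, C3 or E4) to 21 (without T3) with 1 mouse left out. In TE against T they numbered 0, and were 4 with DESeq2, 1 with no filter on low counts and 0 to 1 with 1 mouse left out. Non-overlapping genes numbered 7, and were 42 without TE4, C3 and E1, 25 without T3 and T4, and 8 to 34 with 1 mouse left out, where fewer mice can overlap by construction. Apart from the omissions of mice, the cause of these changes was not tested. No interaction of the 20 named genes changed sign over their 514 alternative values. These genes were picked from the same data by interaction p-value or non-overlap, so a stable sign is no separate support. Sizes moved far in some, from -2.19 to -0.25 for Dhtkd1 and from -2.66 to -0.53 for Anxa8. They ran from 0.28 to 3 for LOC102639683 and from 0.39 to 2.525 for Gm40106. Of the 514 values, 14 had an adjusted p-value under 0.05, all from DESeq2 except Mmp14 without T2 by edgeR. Equal replicate numbers did not pair the mice (7 of 24 pairs of residuals correlated above 0.1, median 0.03). With the replicate block the counts were 0 for the interaction, 1245 opposite responders, 9 in E against C and 0 in TE against T.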
